A study of Homo sapiens with 9 samples.

Results

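The genes of the chaperonin CCT were followed in RNA sequencing of U2OS cells, an established human osteosarcoma cell line. The members are the 8 genes TCP1, CCT2, CCT3, CCT4, CCT5, CCT6A, CCT7 and CCT8, of 70116 gene IDs in the count table. They were taken by symbol as the annotated subunits of the complex, and no value picked one subunit over another. The complex itself was selected from other gene families with earlier results of these counts in view. Its group differences are therefore given as a description, with no test of the members as a set. The first group was PERK KO cells, a U2OS derivative edited with CRISPR/Cas9, given palbociclib for 4 days. The second was wild-type (WT) cells given palbociclib for 4 days, and the third was WT cells given vehicle. Each group held 3 libraries, marked as sets 1, 2 and 3. EIF2AK3 encodes PERK, which sits in the endoplasmic reticulum and phosphorylates eIF2α under stress. Palbociclib inhibits the cell cycle kinases CDK4 and CDK6. Vehicle-treated PERK KO cells were not analysed here, so genotype was compared on the drug only. Whether the knockout line is a single clone is not given in the sources used here.

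CCT, also called TRiC, is the chaperonin of the cytosol. It is built of a pair of stacked rings, and each ring holds 1 copy of each of its 8 related subunits. Unfolded chains, above all actin and tubulin, enter the central cavity and fold there as the rings close on ATP. The cochaperone prefoldin hands chains to the rings, and phosducin-like proteins bind them with their cargo. In yeast the subunits TCP1, CCT2, CCT4 and CCT5 bind ATP with high affinity and the others with low affinity. Subunit levels have been reported to be higher in dividing than in resting mammalian cells.

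Totals ran from 33674039 to 42577874 counts per library, and 19408 genes passed the filter on low counts. No label says that the sets came from separate cultures, and the spread behind each p-value may therefore be a technical one. EIF2AK3 mRNA was at 18.7 ± 0.97 CPM in PERK KO cells, against 34.8 ± 2.6 CPM in WT cells on palbociclib and 33.1 ± 1.6 CPM in WT cells on vehicle (CPM, counts scaled to library size with TMM factors; SD, n = 3 here and below). That was 53.9% of the WT level on the drug (edgeR adjusted p = 5.985e-09), so the mRNA was lower but still present. Of 9 mesenchymal and osteosarcoma genes, 8 averaged over 1 CPM and TWIST1 was near 0. Their summed level was 9200 to 11330 CPM in PERK KO cells and 9236 to 10640 CPM in WT cells on palbociclib, against 6004 to 6544 CPM on vehicle. Of 6 haematopoietic markers 0 averaged over 1 CPM and 2 were listed at 0, with sums of 0.522 to 0.809, 0.566 to 0.737 and 0.304 to 0.523 CPM in the same order of groups. Endothelial markers, 2 of 6 over 1 CPM, summed to 5.44 to 5.74, 5.69 to 6.55 and 4.1 to 4.38 CPM. Epithelial markers, 5 of 6 over 1 CPM, summed to 21.0 to 22.9, 32.3 to 33.2 and 33.0 to 34.9 CPM. On palbociclib against vehicle in WT cells 7 of 8 tested mesenchymal genes rose and 0 fell (edgeR adjusted p under 0.05). They were led by ALPL (log2 fold change 1.51 ± 0.15) and FN1 (1.11 ± 0.13). Among all genes tested 21.3% rose and 22.3% fell at that threshold. In the same comparison 2 of 6 tested epithelial genes rose and 0 fell, and both that rose averaged under 5 CPM. With the set number as a block in the fit 3 of the 6 were called, against 50.3% of all genes, and by DESeq2 1. In PERK KO against WT cells on palbociclib, 2 mesenchymal genes were higher and 2 lower. In that comparison 0 epithelial genes were higher and 3 lower, among them CLDN4 (-0.62 ± 0.07). Among all genes tested 14.9% were higher and 13.0% lower there. The part of these differences in the results below was not tested. The counts are of bulk RNA, in which fewer cells of a type and less RNA per cell cannot be told apart.

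Of the 8 subunits, 7 passed the filter and CCT8 did not. CCT8 (ENSG00000156261.13, subunit theta) lies on the minus strand of chromosome 21 at 29055805 to 29073797 (GRCh38, GENCODE 29). It had 1, 0 and 0 counts in PERK KO cells, 0, 0 and 0 in WT cells on palbociclib, and 0, 1 and 0 in WT cells on vehicle. No library reached 3 counts, so no fold between groups is given. The protein-coding genes next to it were listed in the same way. LTN1, RWDD2B, USP16, CCT8 and MAP3K7CL are 5 consecutive protein-coding genes, and together they had 3 counts over all 9 libraries. On either side of this block N6AMT1 had 827 to 1084 counts and BACH1 had 3101 to 3798 counts per library. The pseudogene CCT8P1 had 26 to 48 counts. Genes that most cells use were also listed at or near 0 elsewhere in the table, among them ACTG1 with 0 to 4 counts and TUBB with 0 to 2. A value near 0 in this table is therefore a listed value, and the cause was not tested.

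**Figure D1:**
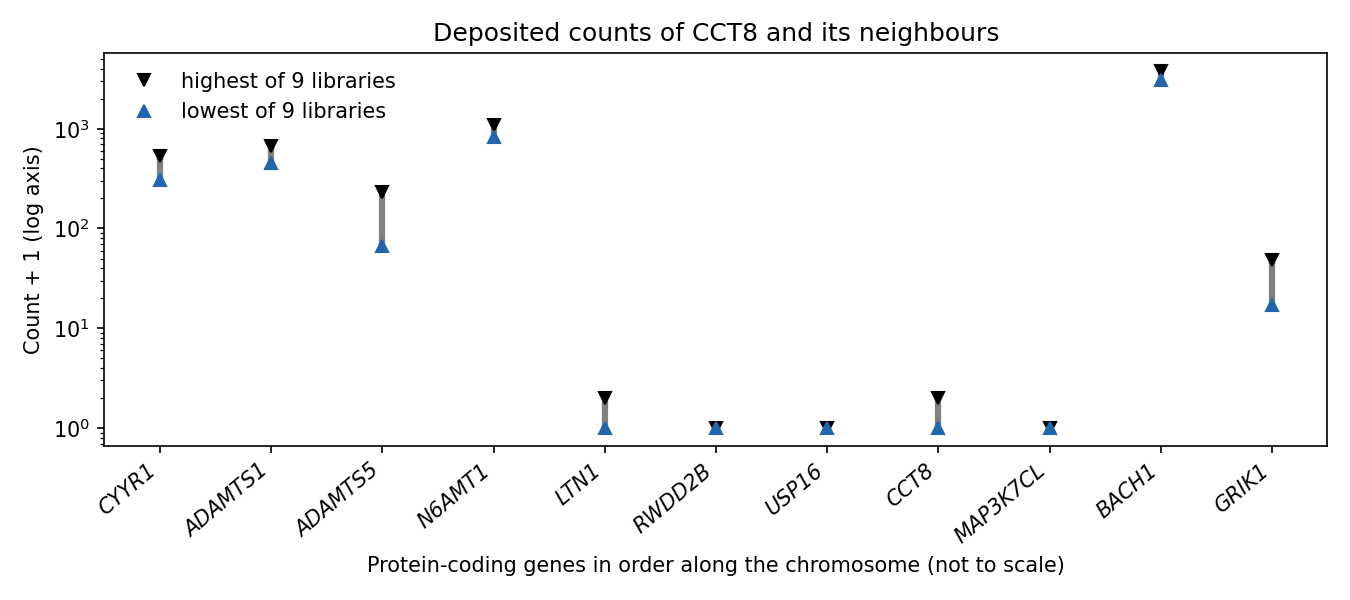
Deposited counts of CCT8 and its protein-coding neighbours in their order along the chromosome, as the lowest and highest of 9 libraries on a log axis of count + 1. The 5 genes from LTN1 to MAP3K7CL stood at 0 or 1 count in every library, while N6AMT1 and BACH1 on either side had at least 827 and 3101 counts.

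The other 7 are protein-coding genes on 6 chromosomes. On GRCh38 with GENCODE 29, TCP1 (ENSG00000120438.12) lies at 159778498 to 159789749 of chromosome 6, CCT2 (ENSG00000166226.13) at 69585334 to 69601570 of chromosome 12 and CCT3 (ENSG00000163468.15) at 156308968 to 156367873 of chromosome 1. CCT4 (ENSG00000115484.15) lies at 61868089 to 61888804 and CCT7 (ENSG00000135624.17) at 73233420 to 73253021, both on chromosome 2. CCT5 (ENSG00000150753.12) lies at 10249921 to 10266412 of chromosome 5, and CCT6A (ENSG00000146731.11) at 56051630 to 56063989 of chromosome 7. TCP1 shares 397 exon bases with ACAT2 on the opposite strand, which had 1312 to 2401 counts, and CCT4 shares 81 with COMMD1, which had 827 to 1090 counts. Low-count genes on the opposite strand share more with CCT5 and CCT4. CCT5 shares 1757 exon bases with AC012640.4 (0 to 5 counts), and CCT4 shares 275 with AC107081.2 (2 to 13 counts). How the counting treated strand is not stated in the labels, and reads in those shared bases cannot be told apart. Of the 15 pseudogene entries named after subunits, the 14 whose parent gene was counted reached at most 19 counts and 0.068% of the parent's count.

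RefSeq promoters (GRCh38.p14, 250 bases before to 50 after each start) were matched for 7 of the 8 genes, in 9 entries. The 6 short motifs named here were searched for on both strands in these windows and in all 35116 promoters of the table. The letters CCAAT stood in 4 of the 9 entries, against 34.6% of all promoters, and GGGCGG in 6 of 9, against 45.0%. By gene these were 4 of 7 and 5 of 7, with CCT8 in both. The entries are not all separate, as those of CCT4 overlap. CACGTG stood in 0 of 9 (7.26% of all), TTTGAA in 0 of 9 (15.2%), and GAANNTTC in 2 of 9 (6.77%). The E2F letters TTTCCCGC, TTTCGCGC, TTTGCCGC or TTTGGCGC stood in 1 of 9, that of TCP1, against 3.31% of all promoters. A match is a match of letters only. The 3 stretches shown are each the longest run of bases before the start, up to 120, that lies outside every GENCODE 29 exon. CCT5 is the subunit with the lowest level on palbociclib relative to vehicle, TCP1 holds the E2F letters, and CCT3 is the subunit nearest its vehicle level. Capitals mark matches to the motifs, with CCAAT read as ATTGG on the other strand, and no base lies in more than 1 match. The CCT5 stretch is chr5:10250446-10250536 on the plus strand, the TCP1 stretch chr6:159789750-159789811 on the minus strand and the CCT3 stretch chr1:156338466-156338502 on the minus strand.
CCT5: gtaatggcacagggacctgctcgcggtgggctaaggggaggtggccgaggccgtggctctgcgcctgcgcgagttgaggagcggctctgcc
TCP1: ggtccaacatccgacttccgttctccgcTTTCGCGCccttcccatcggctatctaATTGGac
CCT3: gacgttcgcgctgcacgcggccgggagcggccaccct
None of the 6 motifs is in the CCT5 or the CCT3 stretch. The whole CCT5 promoter held none of them either, while that of CCT3 held 2 CCAAT matches and 1 GGGCGG match, none within the stretch shown.

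In WT cells all 7 counted subunits were lower on palbociclib than on vehicle, and for each of them the highest library on palbociclib lay below the lowest on vehicle. The drop was not even over the complex. CCT5 stood at 70.1% of its vehicle level and CCT3 at 92.7%. The 7 genes summed to 3180 ± 105 CPM on palbociclib, against 3942 ± 48.1 CPM on vehicle, or 80.7% of it.

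Among the subunits that bind ATP tightly in yeast, CCT5 (epsilon) had 496, 491 and 469 CPM on palbociclib, against 704, 702 and 672 CPM on vehicle. All 3 drug libraries lay far below the vehicle libraries, with a log2 fold change of -0.51 ± 0.048 SE. TCP1 (subunit alpha, which gave the complex its name) had 352, 356 and 337 CPM on palbociclib, against 465, 461 and 465 CPM on vehicle. The vehicle libraries had an SD of 2.4 CPM and the groups stood apart (-0.41 ± 0.046). CCT4 (subunit delta) had 326, 327 and 311 CPM on palbociclib, against 424, 420 and 436 CPM on vehicle. It too stood apart, with a change close to that of TCP1 (-0.41 ± 0.047). CCT2 (subunit beta) had 328, 323 and 295 CPM on palbociclib, against 370, 360 and 355 CPM on vehicle. Its groups came nearer to each other, and set 3 of the drug group lay below the other 2 (-0.20 ± 0.053).

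Of the remaining subunits, CCT6A (zeta) had 595, 579 and 546 CPM on palbociclib, against 737, 736 and 710.0 CPM on vehicle. Its change of -0.34 ± 0.049 was the middle value of the 7. CCT7 (eta), the subunit with the most counts per kilobase, had 600.1, 618 and 569 CPM on palbociclib, against 701, 683 and 675 CPM on vehicle (-0.20 ± 0.048). CCT3 (gamma) had 543, 548 and 532 CPM on palbociclib, against 590.1, 578 and 582 CPM on vehicle. Its groups did not overlap, but the change was small (-0.11 ± 0.044, 95% interval -0.20 to -0.02).

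By edgeR's quasi-likelihood test at an adjusted p under 0.05, 6 of the 7 subunits were lower and 0 higher. Among all 19408 genes, 43.7% were called, 22.3% lower and 21.3% higher. The 7 groups of libraries that did not overlap stand beside 51.6% of all genes. These counts describe the contrast on which the complex was selected. CCT3 lay just outside the threshold with an edgeR adjusted p of 0.05025, and the nearest inside it was CCT2 with 0.004657. With the set number as a block CCT3 was also called (edgeR adjusted p = 0.01008, with 50.3% of all genes called). Without set 3 of the WT palbociclib group CCT2 was no longer called (log2 fold change -0.13, edgeR adjusted p = 0.06827). The median change of the 7 subunits was -0.34, against -0.02 for all genes tested. Genes within 5 Mb of each subunit had median changes of -0.09 to 0.19.

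**Figure D2:**
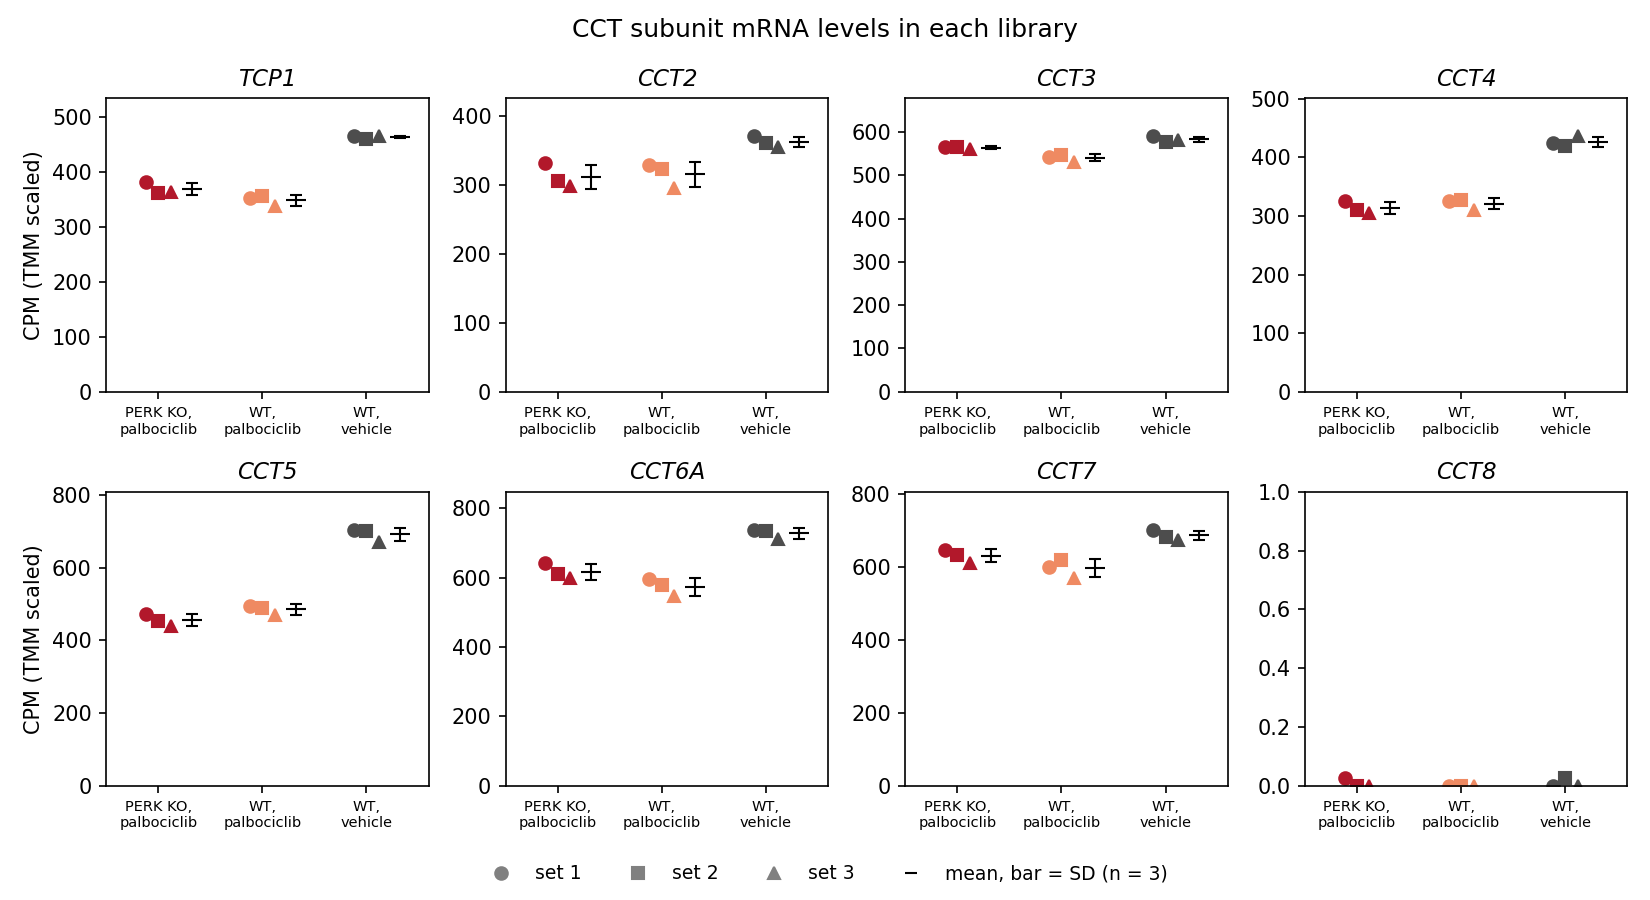
CPM (TMM scaled) of each of the 8 subunit mRNAs in the 9 libraries, as points by set, with the mean and SD of each group (n = 3); CCT8, at 0 or 1 count per library, has points only. In both palbociclib groups each of the 7 counted subunits lies below the vehicle libraries, by the most for CCT5 and the least for CCT3.

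CCT5 and CCT3 were set against each other because they were the most and the least changed of the 7 subunits relative to vehicle, so the distance of their ratio from vehicle follows from that choice and is a description. The ratio of CCT5 to CCT3 counts was taken as a percentage of its mean in vehicle libraries. It was 70.4, 67.3 and 66.2% in PERK KO cells and 76.9, 75.4 and 74.3% in WT cells on palbociclib, against 97.3 to 102.2% on vehicle. The 3 groups did not overlap in this ratio, which needs no scaling between libraries. The gap between the palbociclib groups is also a description of this chosen pair, as ratios of other pairs were not taken.

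Levels of different genes were compared per kilobase of exon, over the union of all annotated exons. On vehicle CCT7 (191 ± 3.7 CPM per kilobase) and CCT6A (186 ± 3.9) were highest and overlapped between libraries. CCT4 (151 ± 3.0), CCT3 (145 ± 1.5), CCT5 (119 ± 3.0), TCP1 (94.0 ± 0.49) and CCT2 (83.8 ± 1.8) followed, each apart from its neighbours in the order. The highest was 2.28 times the lowest. In both palbociclib groups CCT3 ranked above CCT4. It had 140 ± 0.78 CPM per kilobase in PERK KO cells and 135 ± 2.1 in WT cells on palbociclib, where CCT4 had 111 ± 3.7 and 114 ± 3.1. TCP1 and CCT2 lay within 3 CPM per kilobase of each other there. The order depended on the length used. Over the longest coding transcript CCT7 stayed highest on vehicle (338 ± 6.6 CPM per kilobase), but CCT3 (271 ± 2.9) came next, overlapping CCT6A (268 ± 5.6). CCT5 (188 ± 4.8) overlapped TCP1 (185 ± 0.97), and CCT4 (169 ± 3.3) overlapped CCT2 (165 ± 3.5).

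**Figure D3:**
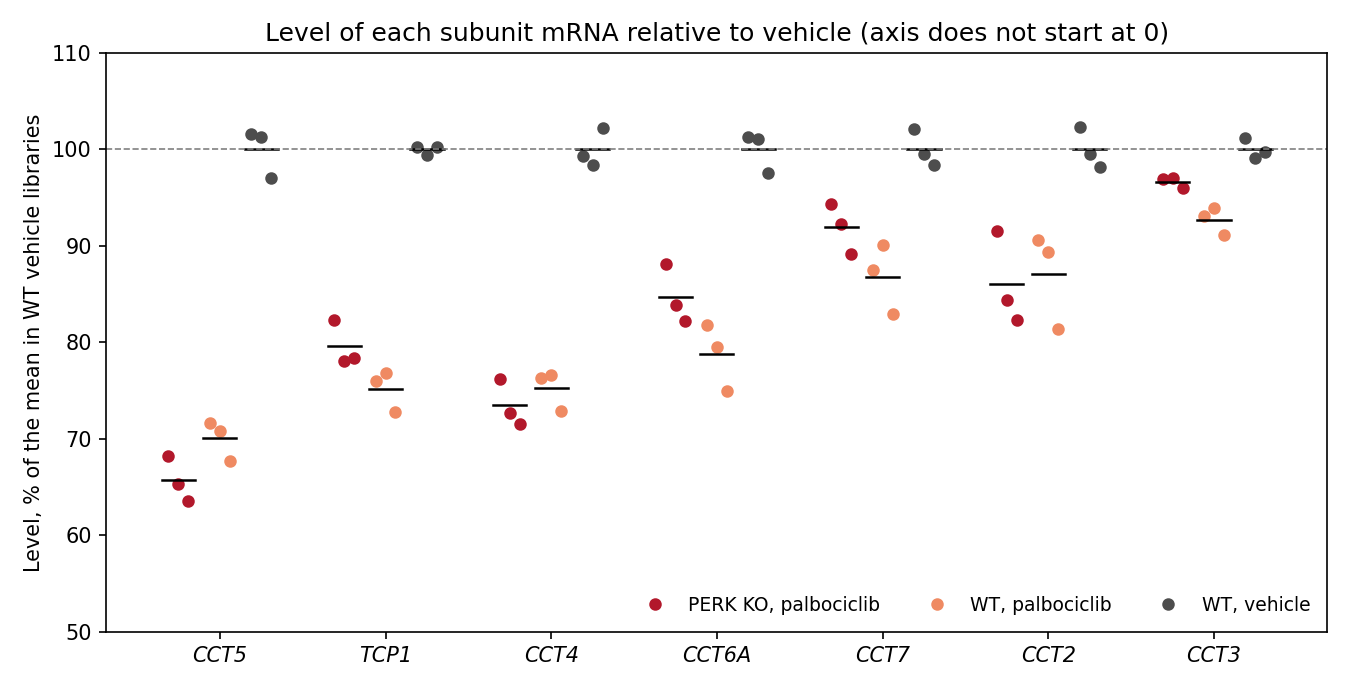
Level of each counted subunit mRNA in each library as a percentage of its mean in WT vehicle libraries, with the group mean as a bar; the axis does not start at 0. CCT5 lies lowest in both palbociclib groups, and CCT3 lies nearest to 100%.

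The next comparison set PERK KO against WT cells, both on palbociclib. No subunit passed the test in the main fit, which left the set out, while CCT6A and CCT5 passed with the set as a block. The levels in the knockout stayed close to those of WT cells on the drug. The sum of the 7 was 3260 ± 95.2 CPM in PERK KO cells, against 3180 ± 105 CPM in WT cells on palbociclib. The subunits did not lean one way, as 4 were above and 3 below the WT mean.

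CCT6A had 641, 610.0 and 598 CPM in PERK KO cells, against 595, 579 and 546 CPM in WT cells on palbociclib. The groups were apart by 3 CPM, with a log2 fold change of 0.10 ± 0.049 and a 95% interval of 0.00 to 0.21. TCP1 had 381, 362 and 363 CPM in PERK KO cells, against 352, 356 and 337 CPM in WT cells on palbociclib (0.08 ± 0.046, interval -0.01 to 0.18). CCT3 had 566, 566 and 560.4 CPM in PERK KO cells, against 543, 548 and 532 CPM in WT cells on palbociclib (0.06 ± 0.044, interval -0.03 to 0.15). These 3 were the subunits whose libraries did not overlap, each higher in the knockout. CCT7 had 647, 633 and 612 CPM in PERK KO cells, against 600.1, 618 and 569 CPM in WT cells on palbociclib, and overlapped (0.08 ± 0.048, interval -0.02 to 0.18). Within each set the knockout library was the higher for CCT6A, TCP1, CCT3 and CCT7 alike.

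CCT5 had 473, 452 and 441 CPM in PERK KO cells, against 496, 491 and 469 CPM in WT cells on palbociclib. Within each set the knockout library was the lower, though set 1 of the knockout lay above set 3 of WT (-0.09 ± 0.048, interval -0.19 to 0.01). CCT4 had 325, 310.2 and 305 CPM in PERK KO cells, against 326, 327 and 311 CPM in WT cells on palbociclib (-0.04 ± 0.047, interval -0.13 to 0.06). CCT2 had 331, 306 and 298 CPM in PERK KO cells, against 328, 323 and 295 CPM in WT cells on palbociclib (-0.02 ± 0.053, interval -0.13 to 0.09). In both the libraries overlapped.

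At an edgeR adjusted p under 0.05, 0 of 7 subunits were called, where 27.9% of all genes were (14.9% higher and 13.0% lower). DESeq2 and limma-voom also called 0, and at an unadjusted p under 0.05 edgeR had 1, CCT6A. Non-overlapping libraries in 3 of 7 subunits stand beside 41.3% of all genes. The median change was 0.06, against 0.01 over all genes. Genes within 5 Mb of a subunit had medians of -0.12 to 0.00, the lowest around CCT6A. With the set number as a block, 2 of 7 were called, against 36.4% of all genes. They were CCT6A, higher in the knockout (0.11, edgeR adjusted p = 0.0192), and CCT5, lower (-0.09, edgeR adjusted p = 0.03989).

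Set against WT cells on vehicle, PERK KO cells on palbociclib had all 7 subunits lower, each without overlap. This comparison shares its libraries with the other two, and its groups differ in genotype and drug together. CCT5 was at 65.7% of its vehicle level (log2 fold change -0.61 ± 0.048) and CCT4 followed (-0.44 ± 0.047). TCP1 (-0.33 ± 0.046), CCT6A (-0.24 ± 0.049), CCT2 (-0.22 ± 0.053) and CCT7 (-0.12 ± 0.048) were also called lower. CCT3 was not called (-0.05 ± 0.044, interval -0.14 to 0.04). The call of CCT7 was lost under 4 of 6 other ways of fitting and when any of 5 single libraries was left out. The 6 of 7 called stand beside 51.7% of all genes (26.0% lower, 25.7% higher), and the 7 of 7 without overlap beside 58.5%. The median was -0.24, against -0.01 over all genes, and the sum of the 7 was 82.7% of its vehicle level.

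**Figure D4:**
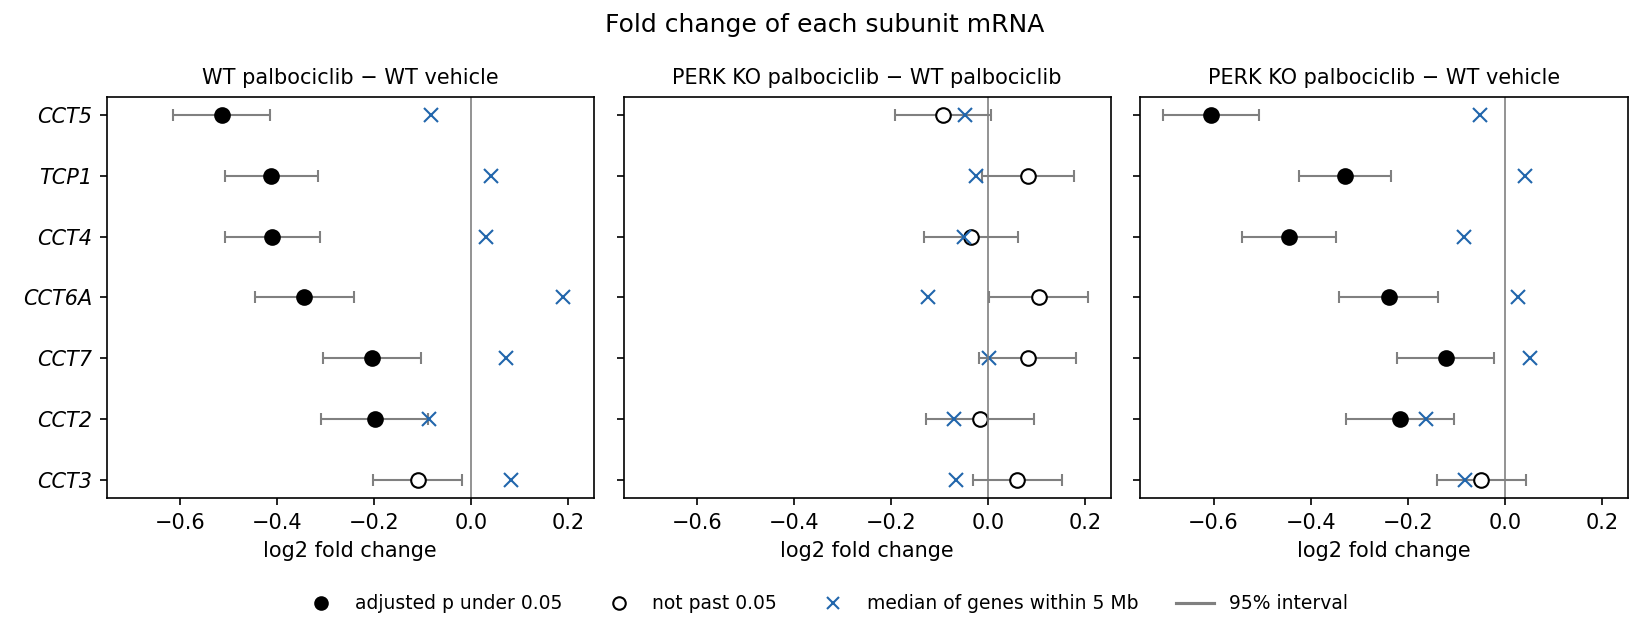
Log2 fold change of each counted subunit in the 3 comparisons, with its 95% interval; filled points passed an edgeR adjusted p of 0.05, and crosses give the median change of tested genes within 5 Mb. Against vehicle the subunits lie left of 0 in both palbociclib groups, and between PERK KO and WT cells on palbociclib their intervals reach or lie near 0.

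Sets were not used to choose the genes, so differences between them were tested. Within each group CCT2, CCT5 and CCT6A were highest in set 1 and lowest in set 3. Set 3 was lower than set 1 by a log2 change of -0.12 for CCT2, -0.09 for CCT6A and -0.08 for CCT5. No subunit passed an edgeR adjusted p of 0.05, where 8.07% of all genes did. The smallest values were those of CCT2 (edgeR adjusted p = 0.0913, unadjusted 0.0101) and CCT6A (0.2234, unadjusted 0.0446), the only 2 of 7 under 0.05 without adjustment.

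Over the 9 libraries the subunits varied together, as genes that share 2 low groups and 1 high group do. The 21 pairs of subunits had Pearson correlations of log2 CPM of 0.73 to 0.99, with a median of 0.91. Each subunit's correlation with the mean of the 7 was lowest for CCT3 (0.86) and highest for TCP1 (0.99). That mean includes the subunit itself, which raises these values. Among 11074 other genes with at least 5 CPM, the 5 most like that mean were KLHL23 (r = 0.998), NCAPH (0.995), KNL1 (0.994), RFC5 (0.994) and TYMS (0.994). NCAPH encodes a condensin subunit, KNL1 a kinetochore scaffold, RFC5 a subunit of the clamp loader of replication, and TYMS thymidylate synthase. Their changes in WT cells on palbociclib against vehicle ran from -0.77 for TYMS to -0.54 for KLHL23, all larger than that of CCT5. Between PERK KO and WT cells on palbociclib they ran from 0.02 for TYMS to 0.13 for RFC5. All 9 libraries share the same 3 groups, and these correlations describe that pattern only.

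Genes that work with CCT were taken from lists by role, and their counts stand beside the share of all genes called. That share was 43.7% in WT cells on palbociclib against vehicle (22.3% lower, 21.3% higher). Between PERK KO and WT cells on palbociclib it was 27.9% (14.9% higher, 13.0% lower). For PERK KO cells on palbociclib against WT cells on vehicle it was 51.7% (26.0% lower, 25.7% higher). Prefoldin, the hexamer that delivers actin and tubulin chains, had 4 of 6 subunits tested, since PFDN5 and PFDN6 were listed at 0 or 1 count. In WT cells on palbociclib 3 of the 4 fell and 0 rose, with a median change of -0.18, against -0.02 over all genes. VBP1, which encodes prefoldin subunit 3, had 97.2, 92.7 and 89.4 CPM on palbociclib, against 118, 122 and 131 CPM on vehicle. It fell by 0.41 ± 0.053 on the log2 scale (edgeR adjusted p = 3.188e-06). PFDN4 (-0.20 ± 0.057) and PFDN2 (-0.17 ± 0.049) also fell, and PFDN1 was at 0.04 ± 0.07.

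In the knockout 2 of the 4 prefoldin genes were lower than in WT cells on palbociclib, with a median of -0.21 for the list. With the set as a block all 4 were called, against 36.4% of all genes. They include PFDN1, whose mean was higher in the knockout than in WT cells on palbociclib. PFDN2 had 33.5, 33.5 and 31.6 CPM in PERK KO cells, against 55.0, 55.4 and 55.9 CPM in WT cells on palbociclib. The groups were wide apart (-0.76 ± 0.051, edgeR adjusted p = 1.137e-09). The 101 tested genes within 5 Mb of PFDN2 had a median change of -0.53 in the same comparison, so most of its neighbourhood was lower as well. PFDN4 fell by 0.30 ± 0.058, beside a neighbourhood median of -0.15. VBP1 (-0.12 ± 0.053) and PFDN1 (0.18 ± 0.07, neighbourhood 0.33) did not pass. Whether the neighbourhood shifts account for these values was not tested.

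Of 7 genes of the prefoldin-like and R2TP complexes, which assemble RNA polymerase and other large complexes, 4 fell and 0 rose in WT cells on palbociclib (median -0.17). They were PDRG1 (-0.27 ± 0.054), RPAP3 (-0.25 ± 0.052), RUVBL2 and RUVBL1, the last 2 a pair of helicases. In the knockout PDRG1 fell (-0.41 ± 0.055, neighbourhood -0.22) and RUVBL1 rose (0.17 ± 0.048), with a list median of 0.05. Of 4 phosducin-like and related cofactors, 3 fell on palbociclib (median -0.17), namely PDCL3 (-0.19 ± 0.056), TXNDC9 (-0.18 ± 0.065) and PDCD5 (-0.16 ± 0.058). Without set 3 of the WT palbociclib group 0 of these 4 were called, and 1 was without set 2 of vehicle, under RLE scaling, by DESeq2 or over the 6 libraries alone. In the knockout PDCD5 fell (-0.22 ± 0.058), the only 1 of the 4, with a list median of -0.14. With the set as a block, or without set 3 of the WT palbociclib group, 3 of them were called, and without set 3 of PERK KO 0 were.

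Chaperonin relatives split. The mitochondrial chaperonin HSPD1 had 727, 699 and 655 CPM in WT cells on palbociclib, against 907, 892 and 868 CPM on vehicle (-0.36 ± 0.05, edgeR adjusted p = 8.346e-06). Its cochaperonin HSPE1 fell too (-0.54 ± 0.051), to 45.2 ± 1.5 CPM on palbociclib, against 65.6 ± 2.5 CPM on vehicle. BBS12, a chaperonin-like protein of cilium assembly, rose to 10.5 ± 0.85 CPM on palbociclib, against 5.2 ± 0.4 CPM on vehicle (1.02 ± 0.1, edgeR adjusted p = 1.143e-07). Its relatives MKKS (-0.13 ± 0.07) and BBS10 (-0.10 ± 0.077) did not pass, so 2 of 5 fell and 1 rose, with a median of -0.13. In the knockout MKKS alone of the 5 was called, with 11.2, 12.4 and 11.9 CPM in PERK KO cells, against 22.1, 21.6 and 22.2 CPM in WT cells on palbociclib. Its change was -0.89 ± 0.073, beside a neighbourhood median of -0.59. The other 4 lay between 0.01 and 0.08, and the list's median was 0.02. Among entries not tested, CCT6B, a paralog of CCT6A known from testis, had 4 to 13 counts and CCT8L2 was listed at 0.

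**Figure D5:**
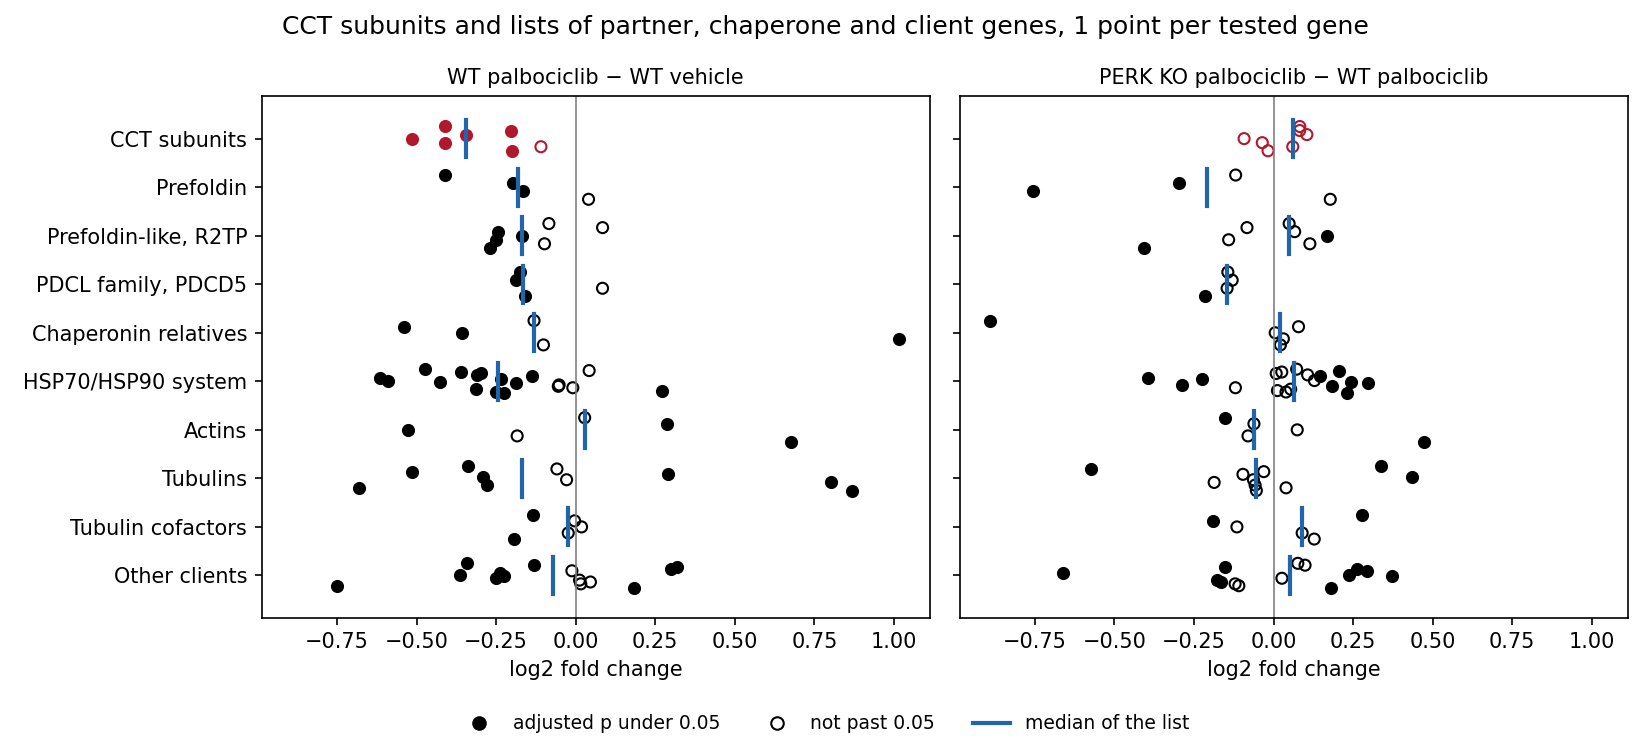
Log2 fold changes of the CCT subunits and of 9 lists of partner, chaperone and client genes, 1 point per tested gene, filled where the edgeR adjusted p was under 0.05, with the median of each list as a bar. On the left, WT cells on palbociclib against vehicle, the subunits lie below 0 with a median of -0.34; on the right, PERK KO against WT cells on palbociclib, they lie around 0 with a median of 0.06.

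The HSP70 and HSP90 system folds proteins upstream of CCT and beside it. Of its 18 tested genes of 21, 13 fell on palbociclib and 1, the kinase cochaperone CDC37, rose, with a median of -0.24. Among all genes 22.3% fell and 21.3% rose. HSPA14, a ribosome-linked HSP70, fell by 0.61 ± 0.071 to 16.6 ± 1.0 CPM on palbociclib, against 25.3 ± 1.3 CPM on vehicle. HSP90AA1, the inducible HSP90, fell by 0.59 ± 0.083 to 1110 ± 106 CPM on palbociclib, against 1669 ± 138 CPM on vehicle. In the knockout 6 of the 18 rose and 3 fell against WT cells on palbociclib, with a median of 0.06. There 14.9% of all genes rose and 13.0% fell. DNAJC7 rose (0.30 ± 0.06) beside a neighbourhood median of 0.30, and HSPA14 fell (-0.39 ± 0.074) beside one of -0.26. HSPA4, DNAJB1, AHSA1, FKBP4 and ST13 were the others that rose, and DNAJB6 and HSP90AB1 the others that fell.

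Clients of the complex had no common direction. Of 5 tested actin and actin-related genes, 2 rose and 1 fell on palbociclib (median 0.03), where 43.7% of all genes were called. ACTB, the most abundant, had 6024 ± 461 CPM on palbociclib, against 6843 ± 533 CPM on vehicle. It did not pass (-0.18 ± 0.084, edgeR adjusted p = 0.09357). With the set as a block 4 were called, against 50.3% of all genes. The count was also 4 without a filter, or without set 2 of WT palbociclib or set 2 or 3 of PERK KO. ACTR2, of the ARP2/3 complex, rose (0.29 ± 0.049), as did the scarce ACTA2, and ACTL6A, of chromatin remodelling complexes, fell (-0.53 ± 0.048). Of 10 tubulins, 3 rose and 5 fell (median -0.17), with TUBA1A (0.87 ± 0.079) and TUBA4A (0.80 ± 0.11) the most changed. TUBB3 also rose, and TUBA1B, TUBA1C, TUBB2B, TUBB4B and TUBG1 fell. Of 14 other reported clients, 3 rose and 7 fell (median -0.07). CDC20, the activator of the anaphase-promoting complex, had 298, 281 and 254 CPM on palbociclib, against 513, 445 and 442 CPM on vehicle (-0.75 ± 0.093, edgeR adjusted p = 6.048e-05). MLST8, a WD-repeat subunit of the mTOR complexes, fell by 0.36 ± 0.054. STAT3 and CCNE1 were among those that rose.

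In the knockout, against WT cells on palbociclib, ACTA2 rose, at a level under 5 CPM, and ACTR3 fell (-0.15 ± 0.051; list median -0.06). Without set 2 of WT palbociclib or set 3 of PERK KO 0 actin genes were called, and the count was 1 when any of the other 4 libraries compared was left out, and by DESeq2. Of the tubulins 2 rose, TUBB2B and TUBG1, and 1 fell (median -0.06), where 27.9% of all genes were called. TUBB2B rose by 0.43 ± 0.076 and TUBB6 fell by 0.57 ± 0.12, beside neighbourhood medians of -0.10 and -0.48. Of the other clients 5 rose and 4 fell (median 0.05). HDAC3 rose (0.37 ± 0.051, neighbourhood 0.29) and PPP2R2A, a regulatory subunit of the phosphatase PP2A, fell (-0.66 ± 0.05, neighbourhood -0.56). CCNE1, MLST8, RPTOR and STAT3 also rose, and GNB1 and GNB2 were also among those that fell.

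Of 5 tested tubulin cofactors, which take tubulin on from CCT, TBCD (-0.13 ± 0.047) and ARL2 (-0.20 ± 0.075) fell on palbociclib and 0 rose, with a median of -0.02. Neither was called under RLE scaling, by DESeq2, without a filter, over the 6 libraries alone, or without set 1 of vehicle or set 1 or 2 of WT palbociclib, and 1 gene of the list was called without set 2 of vehicle or set 3 of WT palbociclib. In the knockout TBCD rose (0.28 ± 0.047, neighbourhood 0.26) and TBCC fell (-0.19 ± 0.067, neighbourhood -0.25), with a median of 0.09. By DESeq2, or without set 1 or 2 of WT palbociclib or set 1 or 3 of PERK KO, 1 gene of the list was called. Of the factors reported to act on CCT genes, MYC rose on palbociclib (0.35 ± 0.055), HSF2 fell (-0.20 ± 0.067) and HSF1 was listed at 0 or 1 count. The count of these factors called was 1 without set 3 of vehicle, without set 1 or 2 of WT palbociclib, by DESeq2, without a filter, or over the 6 libraries alone. In the knockout MYC (0.03 ± 0.054) and HSF2 (0.05 ± 0.067) did not pass.

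Against WT cells on vehicle, PERK KO cells on palbociclib had 3 prefoldin genes lower and 1 higher (median -0.51). Among all genes 26.0% were lower and 25.7% higher. PFDN2 was at -0.92 ± 0.05, beside a neighbourhood median of -0.37, VBP1 at -0.53 ± 0.053 and PFDN4 at -0.49 ± 0.057, while PFDN1 was higher (0.22 ± 0.07, neighbourhood 0.21). Of the R2TP list 3 of 7 were lower (median -0.04), PDRG1 (-0.68 ± 0.055), RPAP3 (-0.39 ± 0.052) and RUVBL2. Of the phosducin-like list 3 of 4 were lower (median -0.32), PDCD5 (-0.37 ± 0.058), TXNDC9 (-0.32 ± 0.065) and PDCL3. Chaperonin relatives had 3 lower and 1 higher (median -0.35). MKKS was at -1.02 ± 0.073, beside a neighbourhood median of -0.74, HSPE1 at -0.46 ± 0.05, HSPD1 at -0.35 ± 0.05 and BBS12 at 1.05 ± 0.1, while BBS10 (-0.08 ± 0.076) did not pass.

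In the same comparison 12 genes of the HSP70 and HSP90 system were lower and 3 higher (median -0.21), the last 3 being CDC37, ST13 and DNAJB1. HSPA14 had the largest drop (-1.01 ± 0.072, neighbourhood -0.36), and HSP90AA1 was at -0.46 ± 0.083. Actins had 2 higher, ACTA2 and ACTR2, and 3 lower (median -0.12), ACTL6A (-0.45 ± 0.048), ACTB (-0.26 ± 0.084) and ACTR3. Tubulins had 2 higher, TUBA1A (0.82 ± 0.079) and TUBA4A, and 4 lower, TUBA1B (-0.64 ± 0.07), TUBB6, TUBB4B and TUBA1C (median -0.05). These counts stand beside 51.7% of all genes called. Of the tubulin cofactors TBCD was higher (0.15 ± 0.047) and TBCC lower (-0.19 ± 0.067), with a median of -0.07. Other clients had 5 higher and 5 lower (median -0.11), with PPP2R2A (-0.90 ± 0.05, neighbourhood -0.48) and CDC20 (-0.86 ± 0.093) the most changed. MYC was the 1 regulator called, higher by 0.38 ± 0.055, and 2 were called with the set as a block or without set 1 of vehicle or set 3 of PERK KO. The count of tubulin cofactors called was 1 by DESeq2 or when any 1 PERK KO library was left out, and 0 without set 2 of vehicle. The 5 actin calls became 3 without set 2 of vehicle or set 1 or 3 of PERK KO.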

How the data were processed

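Poly(A)-selected RNA was sequenced in 9 libraries. The authors deposited raw counts per gene, 1 column per library, not normalized. The submitters' processing notes name STAR 2.7.9a, Trim Galore, FastQC, CASAVA and DESeq2 and the build hg38, in no stated role. Which counter, annotation and strand setting were used is not given in the sources used here. Positions and exon lengths came from GENCODE 29, matched by ID for 58261 of 70116 entries.

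Counts were tested with edgeR 4.0.16 (quasi-likelihood F test, robust, TMM factors 0.977 to 1.015, default low-count filter; R 4.3.3, limma 3.58.1, DESeq2 1.42.0, Python 3.11.15). A single model of the 3 groups held all 9 libraries, with 6 residual degrees of freedom and a biological coefficient of variation of 5.99%. Calls were at a Benjamini-Hochberg adjusted p under 0.05 over 19408 genes. The fit was tested on simulated data. Each pair of replicates differed by more than sampling noise, at a chi-square of 3.45 to 10.72 per degree of freedom.

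The members and the 14 gene lists were chosen with earlier results of these data known. Named genes were the members, EIF2AK3, all prefoldin and chaperonin-relative genes, the 2 most changed called genes per list with at least 5 CPM, and the 5 genes most like the mean of the members. That mean is over 7 members, as CCT8 was not counted. Genes listed near 0, list genes named with no value, the 3 promoters shown and the pair of subunits in the count ratio were chosen with the values known. The 4 marker lists are given by summed levels, with the leading genes of 2 of them.

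Same-numbered libraries deviated together from their group means (r 0.176 to 0.541 in 9 pairs over 12932 genes, against -0.401 to 0.071 in 18 other pairs). On that basis, and on no label, an alternative fit treated set numbers as pairing, with the set as a block. The main fit left the set out. The block fit is given where it changes a call of a subunit, and for some of the lists. Other alternatives were RLE scaling, DESeq2, limma-voom, no filter, only the 6 libraries compared, each library left out, subtraction of the neighbourhood median, and the longest coding transcript as length. The values of 1 client gene, counted within its list, are not reported here.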

Additional observations from a re-analysis of the deposited data

How the results depend on the processing

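Each subunit that was lower on palbociclib than on vehicle in WT cells kept that direction under all alternatives, and 5 to 7 of 7 were called. The median change of -0.34 moved to -0.43 when the median of genes within 5 Mb was subtracted, and lay between -0.37 and -0.29 with 1 library left out, at its smallest without WT palbociclib set 3. CCT3 was also called by limma-voom (adjusted p = 0.02621). Between PERK KO and WT cells on palbociclib the replicate block gave 2 calls, CCT5 and CCT6A, against 0 under all other fits, each left-out library included, where the median lay between 0.03 and 0.07. The block changed no other call of a subunit, apart from CCT3 on palbociclib against vehicle. Changes of uncalled subunits that crossed 0 in that comparison were CCT2, which lay between -0.0794 and 0.0151 with 1 library left out and at 0.053 minus its neighbourhood, and CCT4, at 0.0146 minus its neighbourhood. CCT2 was above 0 without WT palbociclib set 1 or 2 or PERK KO set 3. For PERK KO cells on palbociclib against WT cells on vehicle, CCT3 was at 0.0344 minus its neighbourhood. There 5 to 6 subunits were called with 1 library left out, at medians of -0.27 to -0.22. CCT7 lost its call under RLE scaling, DESeq2, no filter and the 6 libraries alone (adjusted p 0.0603 to 0.06588), and without vehicle set 1 or 2, WT palbociclib set 2, or PERK KO set 2 or 3 (adjusted p 0.05185 to 0.1657). The 7 subunits other than CCT8 had at least 10583 counts in every library. The cause of the counts of 0 or 1 for CCT8 was not tested.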
